A study of Oncorhynchus mykiss with 8 samples.

Results

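Fibrinogen gamma, C1 inhibitor, a mannose-binding lectin-associated serine protease (MASP-3b) and the warm temperature acclimation-related protein Wap65 are plasma proteins of clotting, complement and heme binding, and their transcripts were followed in the white muscle of large and small rainbow trout. The members were 7 of the 43603 probes on the array, namely 3 probes of fibrinogen gamma (A_05_P450362, A_05_P464657 and A_05_P364872), 1 of C1 inhibitor (A_05_P475617), 1 of MASP-3b (A_05_P475232) and 2 of Wap65 (A_05_P420737 and A_05_P251959). They were chosen by name from probes that the study had listed as up-regulated in large fish. All 7 were listed for the Sept. lot, and 2 of them (A_05_P450362 and A_05_P475617) for the Dec. lot too. Sept. values of the members are therefore a description, and no test is given for them.

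The fish were juveniles of the Lyndon strain, just over a year old and reproductively immature, from a Sept. and a Dec. lot. The labels give the feeding as ad libitum, while the study's methods describe a ration set by body weight and water temperature. Each lot was made of half-sib families with 1 sire, and a different sire for each lot, so lot, sire and season cannot be told apart. Pools of mRNA from 5 large fish, 1 per family, were hybridised against pools from 5 small fish of the same families, and each pool pair was run on 2 arrays with the dyes exchanged. There were 2 pool pairs on 4 arrays per lot, and as a swap repeats 1 pair of RNA pools, n = 2 pool pairs per lot. By the study's methods, 1 pool pair set each family's largest fish against its second smallest. The other set the second largest against the smallest, so the pool pairs of a lot differ in size rank. The tissue was a skinned plug of white muscle cut well away from the red muscle. By the same methods, fish were fasted before they were weighed. No treatment was given, and the groups differ in body size within a lot.

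Values are log2(large/small), and positive values mean more transcript in large fish. That direction is likely rather than stated. It rests on 966 of 966 named muscle listings of the study having the listed sign when the deposited columns are read as small over large. Between 41909 and 43249 probes had a value on an array, the arrays' medians lay between -0.03 and 0.02 and their standard deviations between 0.29 and 0.60. The arrays of a swap correlated at -0.17 and -0.11 in the Sept. pool pairs, and at -0.26 and 0.47 in Dec. pool pairs 1 and 2, over all probes with both values. These are ratios without intensities, so levels of different genes could not be compared, white muscle could not be checked against its defining transcripts, and no depth is known. Limma called 0 of 41524 Sept. probes, 0 of 39770 Dec. probes and 0 of 38488 for the difference between lots at an adjusted p under 0.05 (0% each), with 1488, 6048 and 3483 probes at an unadjusted p under 0.05.

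Plasma proteins of this kind are made mainly by hepatocytes and secreted into blood. Fibrinogen is assembled from alpha, beta and gamma chains and is cleaved by thrombin to form the fibrin clot. C1 inhibitor is a serpin that blocks the proteases of the classical and lectin complement pathways, and MASP-type proteases bind the lectins that recognise microbial sugars. Wap65 is a fish relative of hemopexin, the plasma protein that binds free heme, and was named for its rise in fish kept in warm water. Several of these proteins belong to the acute phase response in vertebrates.

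All 7 members were above 0 on each of the 4 Sept. arrays, where their means ran from 0.77 to 1.37, or 1.71-fold to 2.58-fold higher in large fish. Over all probes, 4.73% were above 0 on the 4 Sept. arrays, a share from which nothing is read here because this contrast chose the members. In the Dec. lot the arrays disagreed. All 7 were above 0 on both arrays with large fish in Alexa Fluor 555 (27.4% of all probes were), and 0 of the 6 with a value were above 0 on the array of pool pair 1 with large fish in Alexa Fluor 647 (46.9% of all probes were below 0 there). On the remaining array only 2 of 7 had a value. None of the 2 members measured on all 4 Dec. arrays was above 0 on each of them, against 7.29% of all probes. As the study listed A_05_P450362 and A_05_P475617 for the Dec. lot too, their part in these Dec. counts is not independent evidence.

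**Figure D1:**
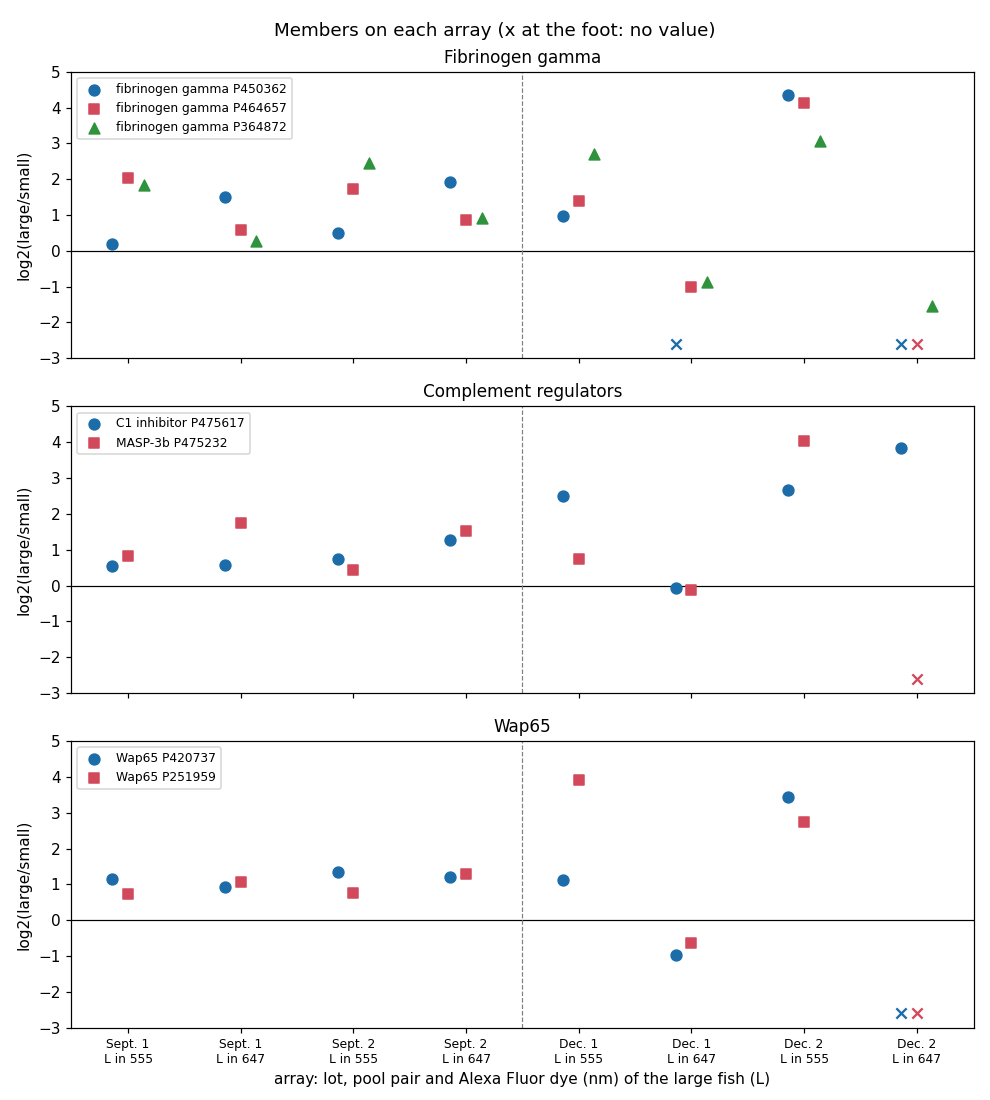
Log2(large/small) of the 7 members on the 8 arrays, by lot, pool pair and dye of the large fish (L); each point is 1 probe on 1 array and a cross at the foot marks a missing value. All points of the Sept. arrays lie above 0, those of Dec. pool pair 1 with large fish in Alexa Fluor 647 lie between -1.02 and -0.07, and those of Dec. pool pair 2 with large fish in Alexa Fluor 555 between 2.68 and 4.35.

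Of the fibrinogen gamma probes, A_05_P450362 read 0.20 and 1.52 on the arrays of Sept. pool pair 1, with large fish in Alexa Fluor 555 and then 647, and 0.50 and 1.92 on those of pool pair 2. Both arrays with large fish in 647 were the higher ones. The mean was 1.03 ± 0.25 (SD, n = 2 pool pairs), 2.05-fold higher in large fish. In the Dec. lot it had values only with large fish in 555, 0.97 in pool pair 1 and 4.35 in pool pair 2, so no Dec. mean over swaps could be formed although the study listed this probe for that lot.

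A_05_P464657 read 2.05 and 0.58 in Sept. pool pair 1 and 1.72 and 0.85 in pool pair 2, in the same dye order. Here the arrays with large fish in 555 were the higher ones, and the pool pair means nearly coincided at 1.30 ± 0.019 (SD, n = 2), a 2.47-fold difference. In Dec. pool pair 1 the probe read 1.38 and -1.02, and in pool pair 2 it read 4.14 with no value on the other array.

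A_05_P364872 read 1.84 and 0.27 in Sept. pool pair 1 and 2.45 and 0.91 in pool pair 2, with a mean of 1.37 ± 0.44 (SD, n = 2), or 2.58-fold. It was the only fibrinogen gamma member with a value on all 4 Dec. arrays, 2.71 and -0.86 in pool pair 1 and 3.07 and -1.54 in pool pair 2. Both arrays with large fish in 555 were high and both with large fish in 647 were below 0. The swaps averaged to 0.92 and 0.77, and their mean was 0.85 ± 0.17 (limma SE, n = 2 pool pairs), 1.80-fold higher in large fish, which did not pass the test across all probes (limma adjusted p = 0.181). With large fish in 555 alone the value was 2.89, and with large fish in 647 alone it turned to -1.20. The adjusted p ran from 0.0586 to 0.832 over the alternatives tried. The study had listed this probe for the Sept. lot only.

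A further fibrinogen gamma probe, A_05_P480537, was also listed by the study for the Sept. lot but is no member. It tracked A_05_P364872 to within 0.047 on every Sept. array and to within 0.20 on 7 of the 8 arrays. On the array of Dec. pool pair 2 with large fish in 647 it read 4.20 where A_05_P364872 read -1.54, a gap of 5.73. Its Dec. mean was 2.18 ± 0.68 (limma SE, n = 2; adjusted p = 0.271). The Dec. value of the fibrinogen gamma transcript in pool pair 2 thus depends on which of these probes is read, 0.77 or 3.55. Whether both probes match 1 transcript was not tested. The fibrinogen alpha probe, A_05_P332052, read 1.20, 0.57, 1.68 and 1.86 on the Sept. arrays, then 1.66, -0.95, 1.85 and 3.76 on the Dec. arrays. It too was positive on each Sept. array and negative on that of Dec. pool pair 1 with large fish in 647. A_05_P450362 differed from A_05_P364872 by 1.01 to 1.95 on the Sept. arrays, where A_05_P464657 differed from A_05_P364872 by 0.059 to 0.73.

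Among the complement regulators, C1 inhibitor (A_05_P475617) read 0.53 and 0.57 in Sept. pool pair 1 and 0.73 and 1.26 in pool pair 2. The mean of 0.77 ± 0.32 (SD, n = 2), 1.71-fold, was the lowest of the members in this lot. In the Dec. lot it read 2.5 and -0.07 in pool pair 1 and 2.68 and 3.83 in pool pair 2. It was high on 3 of 4 arrays and close to 0 on the other. The Dec. mean was 2.23 ± 1.45 (SD, n = 2), 4.71-fold, and has no test here because the study listed the probe for that lot. C1 inhibitor was the member with the widest spread between Dec. pool pairs, 1.21 in the first and 3.26 in the second, of the 2 members for which it could be measured.

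A second C1 inhibitor probe, A_05_P265959, which is no member, read 0.64, 0.76, 1.04 and 0.09 on the Sept. arrays and 1.01, -1.07, 3.32 and 4.20 on the Dec. arrays. It differed from the member by up to 1.17 in the Sept. lot and by up to 1.49 in the Dec. lot, and its Dec. mean was 1.87 ± 0.92 (limma SE, n = 2; adjusted p = 0.446). Both probes were positive on the same 7 arrays.

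MASP-3b (A_05_P475232), a protease of the lectin pathway family, read 0.82 and 1.75 in Sept. pool pair 1 and 0.44 and 1.52 in pool pair 2. Both arrays with large fish in 647 were the higher ones, as for A_05_P450362. The mean was 1.13 ± 0.22 (SD, n = 2), 2.19-fold. In Dec. pool pair 1 it read 0.74 and -0.13, and in pool pair 2 it read 4.05 with no value on the other array.

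Of the Wap65 probes, A_05_P420737 read 1.15 and 0.93 in Sept. pool pair 1 and 1.34 and 1.21 in pool pair 2, with a mean of 1.16 ± 0.17 (SD, n = 2), or 2.23-fold. A_05_P251959 read 0.74 and 1.07, then 0.75 and 1.29, with a mean of 0.96 ± 0.084 (SD, n = 2), or 1.95-fold. The Wap65 probes differed from each other by at most 0.58 on a Sept. array and spread less over the 4 arrays than the fibrinogen gamma and MASP-3b probes did. In Dec. pool pair 1 A_05_P420737 read 1.12 and -0.97 while A_05_P251959 read 3.92 and -0.64. They were 2.80 apart on the first of these arrays, although they share a name. In Dec. pool pair 2 they read 3.43 and 2.74 with large fish in 555, and neither had a value on the other array.

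In the Sept. lot the members fell apart by dye. A_05_P364872 was 1.57 and 1.54 higher with large fish in 555 than in 647, in pool pairs 1 and 2, and A_05_P464657 was 1.46 and 0.87 higher. A_05_P450362 ran the other way, by -1.32 and -1.43, and so did MASP-3b, by -0.93 and -1.08. C1 inhibitor and both Wap65 probes differed by at most 0.54 in size. Thus 4 of 7 members differed by at least 0.8 in 1 direction in both pool pairs, against 2.53% of all probes, with that limit set after the values were seen. As the members were chosen from these same Sept. arrays, nothing is read from that share. The trait was shared with other lists. It held for 3 of the 21 other clotting, complement and heme, iron and copper probes. It also held for 3 of 13 other plasma protein, 3 of 5 liver-cell and 2 of 12 red blood cell probes. Leukocyte probes had it in 2 of 13, skin probes in 2 of 4 and slow muscle probes in 4 of 8. Over all probes the median size of the difference was 0.24 and 0.23 in the pool pairs, and its 95th percentile 0.98 and 1.10. The swap average weighs both orientations alike, while single-array values of these 4 members hold the difference. Whether it is a fixed effect of the dye was not tested. In the Dec. lot it was 3.57 and 4.61 for A_05_P364872. In Dec. pool pair 1 it was 2.40 for A_05_P464657 and 0.87 for MASP-3b, the latter with the other sign than in the Sept. lot.

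**Figure D2:**
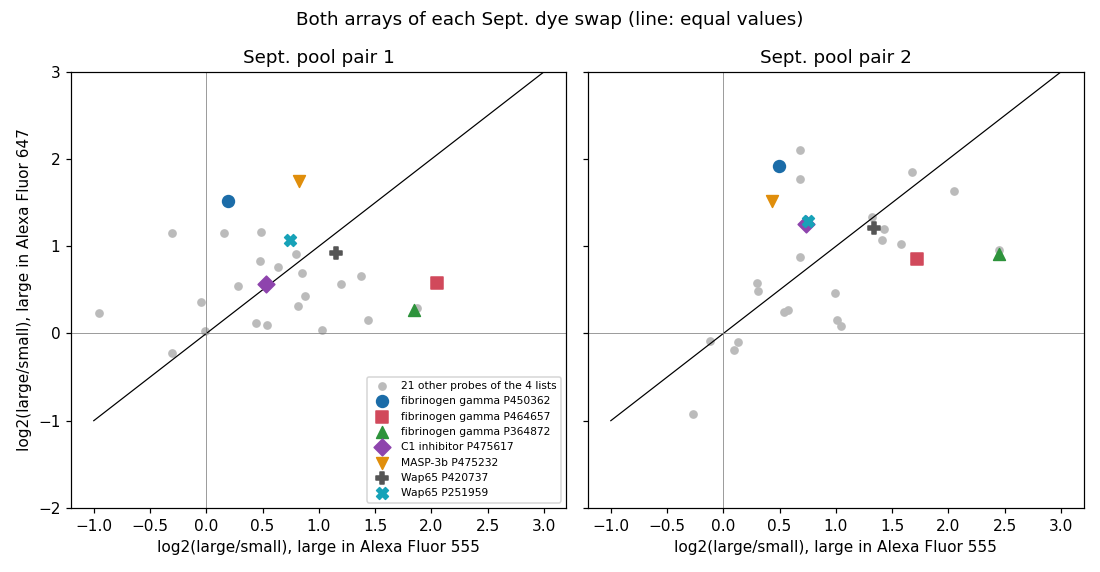
Log2(large/small) with large fish in Alexa Fluor 647 against that with large fish in Alexa Fluor 555, for Sept. pool pairs 1 and 2; coloured symbols are the 7 members, grey points the 21 other probes of the clotting, complement and heme, iron and copper lists, and the line marks equal values. A_05_P364872 and A_05_P464657 lie below the line in both pool pairs, A_05_P450362 and MASP-3b above it, and both Wap65 probes near it.

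Missing values bear on the Dec. results. On the array of Dec. pool pair 2 with large fish in 647, 5 of 7 members had no value, where 1.91% of all probes had none. Of the 256 probes that read at least 2.5 on the other array of that swap, 61 (23.8%) had no value, against 1.40% of probes between -0.5 and 0.5 and 0 of 17 at or below -2.5. All 7 members were among those 256, which were 0.605% of the probes measured on that array. On each of the 8 arrays the share without a value was highest at 2.5 and above, from 4.55% (5 of 110 probes) to 36.1% (22 of 61). The 4.55%, in Dec. pool pair 1 with large fish in 647, stood against 2.41% between -0.5 and 0.5. Probes at or below -2.5 were few, 7 to 37 per array. In Dec. pool pair 2 with large fish in 555, 1 of 37 of these (2.7%) had no value, against 2.47% between -0.5 and 0.5. The study's methods removed points with a low ratio of signals between channels before normalisation. The part of that step in these gaps was not tested. Of the 195 such probes with a value on both arrays of Dec. pool pair 2, 174 were above 0 on the second and 7 were below -1, A_05_P364872 among them.

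**Figure D3:**
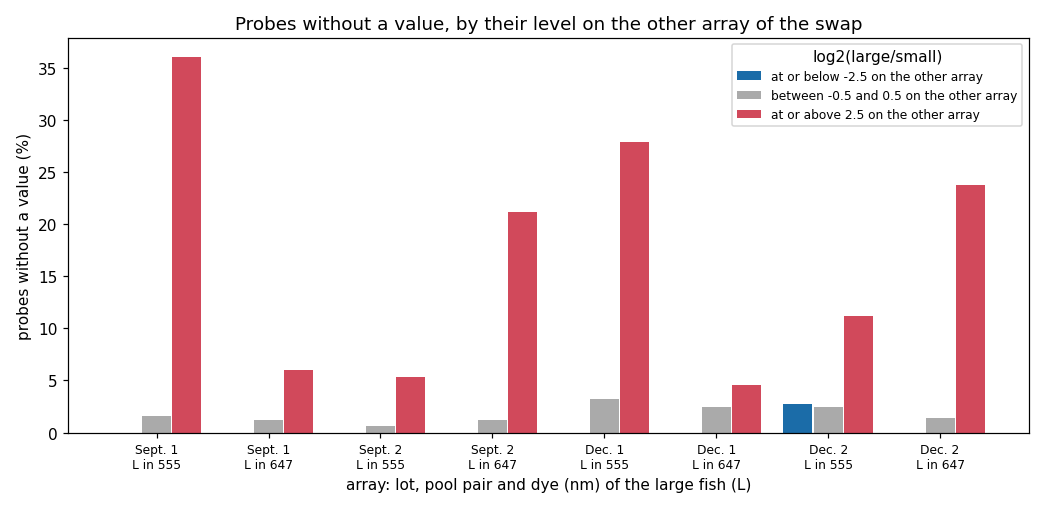
Percent of probes without a value on each array, split by their log2(large/small) on the other array of the swap (at or below -2.5, between -0.5 and 0.5, at or above 2.5). On every array the bar of probes at or above 2.5 is the tallest, from 4.55% to 36.1%.

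The other probes of the clotting, complement and heme, iron and copper binding lists numbered 21. The study had listed 16 of them for the Sept. lot, so their direction is not independent evidence. In the Sept. lot 16 of the 21 were above 0 on all 4 arrays (4.73% of all probes were). Below 0 on all 4 was 1 of the 21 (2128 of 41524 over all probes). Their median was 0.77 against -0.005 over all probes, and 0 passed the adjusted test. In the Dec. lot 13 of the 21 had a value on all 4 arrays, with a median of 1.54 against -0.01 over all probes. The pool pairs were unlike. Over those of the 21 with a value, the array medians were 0.89 and -0.37 in Dec. pool pair 1. In pool pair 2 they were 3.40 and 3.10, each with large fish in 555 and then 647. Of the 13, 1 was above 0 on all 4 arrays (7.29% of all probes were), 1 was below 0 on all 4, and 0 passed the adjusted test.

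Within these lists, all 8 complement probes, members included, had been listed by the study for the Sept. lot. Their shared direction there is therefore not independent evidence. They were above 0 on every Sept. array (4.73% of all probes were), with a median of 0.84. They held complement C3, the protein on which the pathways converge, at 1.43, 0.15, 1.41 and 1.07, and C9, a subunit of the membrane attack complex, at 0.44, 0.13, 1.32 and 1.33. The clotting list outside fibrinogen, of which the study listed 6 of 8 for that lot, was mixed. In it 5 of 8 were above 0 on all Sept. arrays, with a median of 0.52. Its lowest probe, coagulation factor X precursor (A_05_P457147), read -0.31, -0.22, -0.27 and -0.92, and was the lowest of the 21 in the Sept. lot at -0.43. The highest was the fibrinogen gamma probe A_05_P480537 at 1.39. Factor X is the protease that activates prothrombin, whose own probe (coagulation factor II precursor, A_05_P364912) read 0.81, 0.32, 1.43 and 1.20.

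In the Dec. lot the highest of the 13 was beta-2-glycoprotein 1-like (A_05_P275734), a plasma protein that binds phospholipid, at 2.30 ± 1.11 (limma SE, n = 2; adjusted p = 0.436). Its swaps averaged to 0.04 in Dec. pool pair 1 and to 4.56 in pool pair 2. The lowest was another factor X probe (A_05_P425897) at -0.37 ± 0.10 (limma SE, n = 2; adjusted p = 0.233). Hemopexin (A_05_P275779), the relative of Wap65, read 0.85, 0.69, 0.68 and 0.88 on the Sept. arrays, nearly level as Wap65 was. On the Dec. arrays it read 0.24, -0.03, 3.40 and 0.04, high on 1 array only.

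The study did not list the 3 probes of trf, the symbol of transferrin, which carries iron in plasma. A_05_P249269 read -0.31, 1.15, 0.68 and 2.10 on the Sept. arrays, higher with large fish in 647 in both pool pairs. A_05_P474597 read 0.54, 0.10, 2.05 and 1.63. A_05_P393692 read -0.02, 0.03, 0.09 and -0.19, close to 0 on each. The probes of trf therefore gave different patterns, and their Dec. values on the array that was high for the members were 3.92, 2.57 and 0.41.

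**Figure D4:**
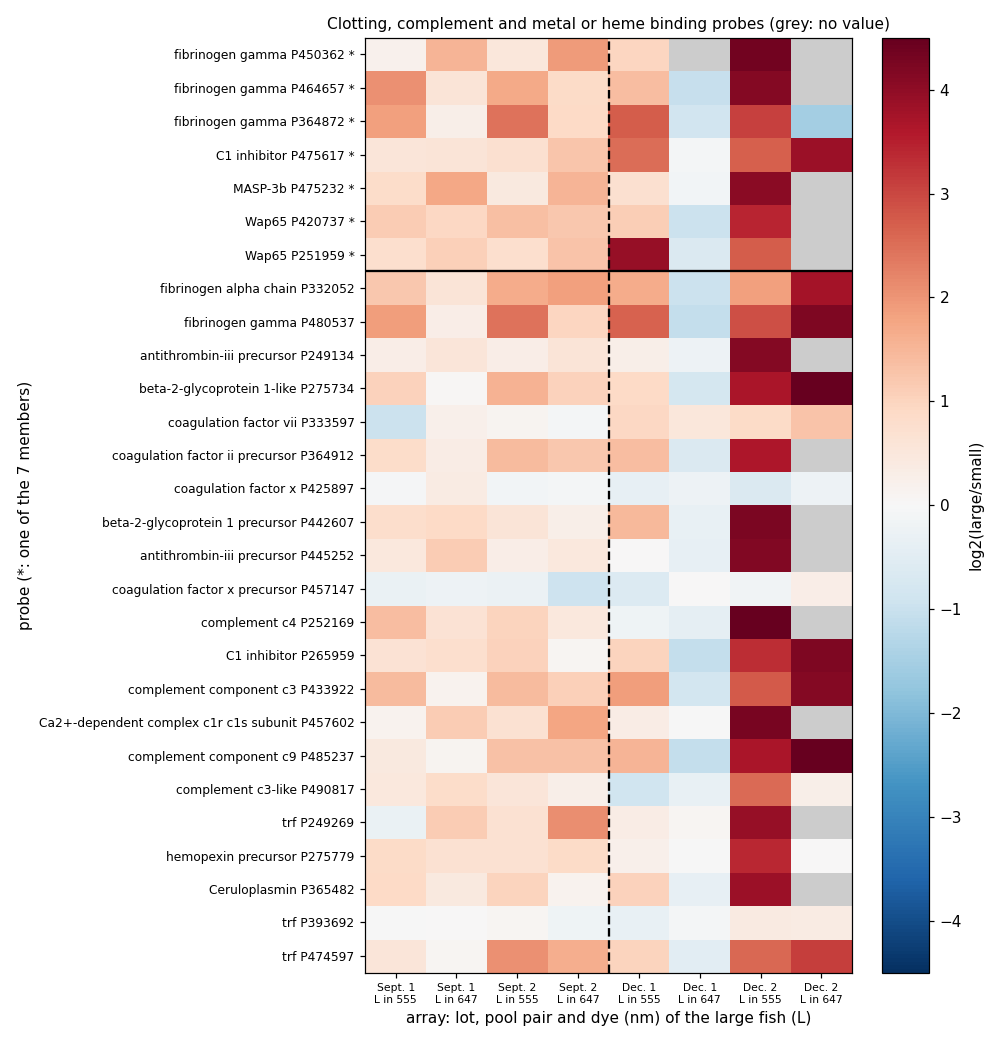
Log2(large/small) of the 7 members (starred, above the line) and the 21 other probes of the 4 lists on the 8 arrays, red for higher in large fish, blue for higher in small fish and grey for no value. The array of Dec. pool pair 2 with large fish in Alexa Fluor 555 is dark red for most rows, and the other array of that swap has no value for 13 of the 28 probes.

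Of the lists that mark other cells, both liver lists had medians of the same sign as the members' on every array. The liver-cell median was near 0, at 0.04, on the array of Sept. pool pair 1 with large fish in 555. There 3 of 5 liver-cell probes were above 0, and the members' median was 0.82. On the array of Dec. pool pair 2 with large fish in 647, few probes of the members and of both liver lists had a value. These were 2 of 7 members, 4 of 13 plasma protein and 2 of 5 liver-cell probes. The 2 members read -1.54 and 3.83 there, and the 2 liver-cell probes -0.95 and 5.64. The red blood cell, leukocyte, skin and slow muscle lists each departed from that sign on some array. The red blood cell list did so at a median of 0.16, on that of Dec. pool pair 1 with large fish in 647. In a pooled bulk sample more cells of a type, or more blood in a plug, and more RNA per cell cannot be told apart. The 13 other plasma protein probes of the liver list had a median of 0.95 in the Sept. lot, where 10 were above 0 on all 4 arrays. The 5 probes of liver proteins that are not secreted, such as liver-type fatty acid-binding protein, had a Sept. median of 0.92, with 3 of 5 above 0 on all 4. The list was not uniform. Its probe A_05_P413832 of formiminotransferase cyclodeaminase, an enzyme of histidine breakdown, read -0.63, -1.54, -0.32 and 0.40 on the Sept. arrays and -2.38, 0.09, -1.68 and -0.95 on the Dec. arrays, while the other probe of that name (A_05_P252304) read 0.34, 0.73, 0.63 and 0.98 on the Sept. arrays. The 12 red blood cell probes, all hemoglobin chains, had a Sept. median of 0.69 and 8 of 12 above 0 on all 4. Over all probes, 4.73% were above 0 on all 4 Sept. arrays. From these arrays the study had listed 12 of 13 plasma protein, 4 of 5 liver-cell and 5 of 12 red blood cell probes for the Sept. lot. For that lot the study had listed 1 of 13 leukocyte, 0 of 4 skin and 0 of 8 slow muscle probes. The members were chosen from the same Sept. listings. The Sept. sign that both liver lists share with the members is therefore not independent evidence.

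On the array of Dec. pool pair 2 with large fish in 555 the median was 3.43 over the members, 3.60 over the other plasma proteins, 3.89 over the liver-cell list and 2.55 over the red blood cell list. On that of Dec. pool pair 1 with large fish in 647 the medians were -0.75, -0.28, -0.45 and 0.16. The medians of the members and of both liver lists were thus high on the former array and below 0 on the latter, where 2 of 13 plasma protein and 1 of 5 liver-cell probes were above 0. The red blood cell list had medians of 0.27 and 0.16 in Dec. pool pair 1 and of 2.55 and 3.68 in pool pair 2. Their part in the members' values was not tested. The leukocyte list (13 probes) had medians between -0.16 and 0.37 over the 8 arrays. Its probes were mixed in the Dec. lot, with means from -0.68 to 1.13. There 3 of 13 were above 0 and 3 of 13 below 0 on all 4 arrays. The 4 skin probes had a median of 0.68 in the Sept. lot, where 1 of 4 was above 0 on all arrays, and were all above 0 on each Dec. array, with medians from 0.83 to 2.04. The 8 slow muscle probes had a Sept. median of 0.30. On the Dec. arrays their medians ran from -2.72 to -0.37, and of the 7 with a value on all 4, 6 were below 0 on each. For the Dec. lot the study had listed all 4 skin, 7 of the 8 slow muscle and 9 of the 13 leukocyte probes. The Dec. direction of these probes is therefore not independent evidence. Over all probes, 7.29% were above 0 and 3006 of 39770 below 0 on all 4 Dec. arrays, and 4.73% were above 0 on all 4 Sept. arrays. The part of slow muscle or skin in the samples was not tested either. As the arrays give only ratios, summed levels of these markers are unknown.

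**Figure D5:**
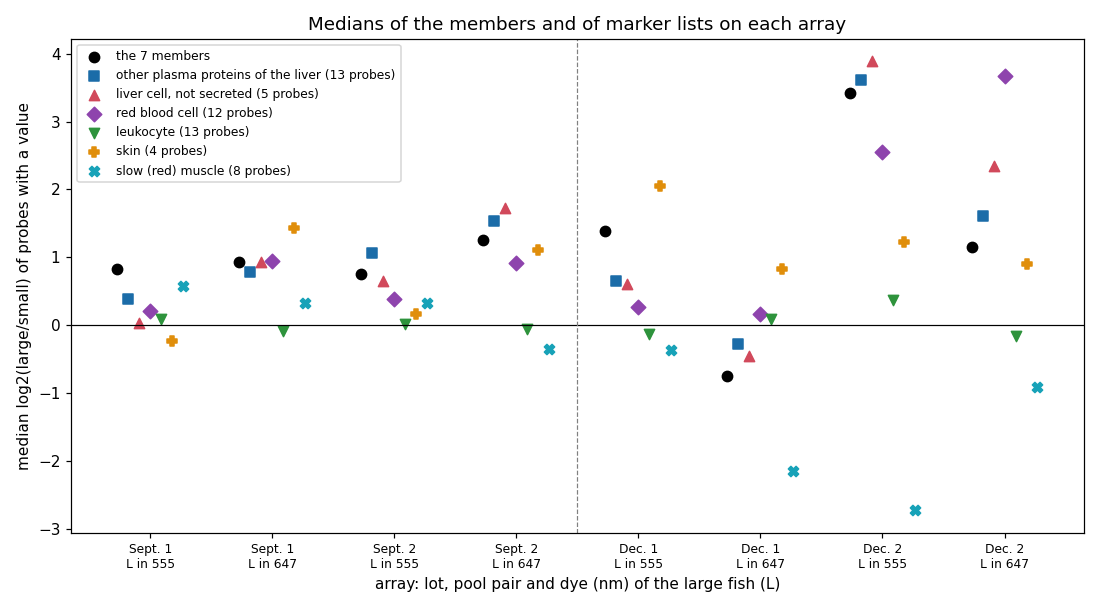
Median log2(large/small) on each array of the members and of 6 marker lists, over the probes with a value. On Dec. pool pair 2 with large fish in Alexa Fluor 555 the members stand at 3.43 and both liver lists at 3.60 and 3.89, on Dec. pool pair 1 with large fish in Alexa Fluor 647 at -0.75, -0.28 and -0.45.

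The named probes that ran most like each member were sought by Pearson's r over the arrays on which the member had a value, a description over 6 to 8 arrays that share pools and dyes. Nearest to A_05_P450362 (6 arrays) were liver-type fatty acid-binding protein, a lipid carrier inside hepatocytes, at r = 0.998 and never over 0.40 apart, hemoglobin subunit alpha at 0.997, and a second probe of the fatty acid-binding protein at 0.996. The largest gap on an array was 1.58 for that hemoglobin subunit alpha probe and 0.46 for the second probe of the fatty acid-binding protein. MASP-3b (7 arrays) ran nearest to hemoglobin subunit beta-1 (0.989), hemoglobin subunit alpha (0.980) and alpha 2a pancreatic (0.973). They were up to 1.53, 1.28 and 0.65 apart from MASP-3b, so a high r was no match in level. The other fibrinogen gamma probe with a missing Dec. value, A_05_P464657, ran nearest to non-muscle myosin-2 heavy chain (0.965), beta-2-glycoprotein 1-like (0.963) and the Wap65 probe A_05_P420737 (0.962).

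A_05_P420737 itself ran nearest to angiotensinogen precursor (0.971), a ribosomal protein of the small subunit (A_05_P377337, 0.968) and transmembrane protein 100-like (0.968). For the other Wap65 probe, A_05_P251959, thymidine phosphorylase (0.962), NADH dehydrogenase subunit 6 (0.947) and C1 inhibitor (0.943) came first among named probes, with 123 unnamed probes closer than the last of them. These 3 named probes were up to 2.52, 3.43 and 1.42 apart from A_05_P251959 on an array. C1 inhibitor (8 arrays) was nearest to NADH dehydrogenase subunit 6 (0.953), eukaryotic translation elongation factor 1 alpha 1 (0.947) and ADP-ribosylation factor 4 (0.945). They were up to 2.78, 1.21 and 2.54 apart from C1 inhibitor on an array, and 25, 37 and 44 unnamed probes were closer than them. The study had listed thymidine phosphorylase and NADH dehydrogenase subunit 6 as higher in small Sept. fish. A high r here thus does not mean a shared direction of the size difference. A_05_P364872 (8 arrays) was nearest to apoptosis regulator bax (0.914), a zinc finger protein (A_05_P403505, 0.891) and dual specificity protein phosphatase cdc14a (0.890), each over 2.5 apart on some array. For A_05_P364872, 36 unnamed probes were closer than bax, and 61 were closer than each of the others. The Wap65 probes shared none of these neighbours with each other.

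Set side by side, the lots share no fish. For the 2 members with values on all 8 arrays, A_05_P364872 averaged 1.37 for Sept. and 0.85 for Dec. fish, and C1 inhibitor 0.77 and 2.23. Dec. minus Sept. was -0.52 ± 0.24 and 1.46 ± 0.72 (limma SE, n = 2 pool pairs per lot), given without a test since the Sept. values chose the members. The other 5 members had no Dec. mean over both pool pairs. In Dec. pool pair 1 alone the swap averaged to 0.18 for A_05_P464657, 0.30 for MASP-3b and 0.08 for A_05_P420737, below both Sept. pool pairs of each. For A_05_P251959 it averaged to 1.64, above both. With large fish in 647 that pool pair lay below every Sept. array for these 4 probes. With large fish in 555, Dec. pool pair 2 exceeded both Sept. pool pairs for each of the 5, and Dec. pool pair 1 exceeded both for A_05_P450362 and A_05_P251959 only. The order of the lots thus changed with the dye orientation and the pool pair.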

How the data were processed

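The deposited values are log2 ratios of 2-colour Agilent salmonid arrays, 1 column per array (8 arrays). Per the study's methods, the authors scanned with GenePix, checked each spot by eye, filtered data points whose channels had a low ratio, and applied lowess within and across arrays in GeneSpring. Whether the spread of the arrays was scaled is not given in the sources used here. The columns were negated to log2(large/small). Of the table's rows, 60 controls were left out, and 0 columns lacked a sample. Groups came from sample titles. Values of a swap were averaged, with both arrays required, and fitted with 1 mean per lot over 4 pool pairs in limma 3.58.1 (R 4.3.3), with Benjamini-Hochberg adjustment over all probes having values on the lot's 4 arrays. A script for the fit was tested on simulated data. Names came from the platform annotation (221 probes) and the study's lists (1494 named in all).

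The members and the 10 lists (fibrinogen, coagulation, complement, heme, iron and copper binding, other liver plasma proteins, liver cell, red blood cell, leukocyte, skin, slow muscle) were chosen with earlier results of these data known. Unrelated names taken by a pattern were dropped. Named in the text are the 7 members, the highest, lowest and unlisted probes of the first 4 lists, and each member's 3 nearest named probes. Complement C3, C9, prothrombin, fibrinogen alpha, the second C1 inhibitor probe, hemopexin and formiminotransferase cyclodeaminase were added after their values were seen. Alternatives were centring, scaling, single-lot fits, a dye term, the methods' t-test, probes on all 8 arrays, 1 dye orientation and leaving out pool pairs. The p-values reflect how far pool pairs differ, which includes array noise and, since fish were pooled, leaves out most differences between single fish.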

Additional observations from a re-analysis of the deposited data

How the results depend on the processing

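The count of adjusted calls was 0 in each comparison, and moved to 6 under the methods' t-test on pool pairs for the Sept. fish. For the Dec. fish it moved to 8 with single arrays, a dye term and a random pool pair, and to 3 under the methods' t-test on pool pairs. Leaving out 1 pool pair gave 0 to 381 calls in the Dec. lot, the 381 without Dec replicate 1, where the lone pool pair is assumed to vary like the others. A_05_P364872 was not among them. With the replicate number as a block, Dec. minus Sept. kept 0 calls. Same-numbered pool pairs deviated together at 0.07 over 38488 probes, and the labels tie no fish across lots. The 9 lot means of members measured on all 4 arrays stayed above 0 after centring, after scaling and with large fish in Alexa Fluor 555 only. With large fish in Alexa Fluor 647 only, 8 of 9 did, and A_05_P364872 in the Dec. lot turned to -1.20. Without 1 pool pair the Sept. means lay between 0.55 and 1.68, and the Dec. means between 0.77 and 3.26. Only 2 pool pairs per lot and unknown intensities limit the precision. The cause of these moves was not tested.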

Other observations

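Probes whose names hold C1q, the recognition domain that complement shares with other secreted proteins, numbered 6 and were looked up after the members' values were seen. Complement C1q-like protein 4 precursor (A_05_P332842) read 2.48, 2.75, 1.45 and 1.16 on the Sept. arrays and 1.14, -0.89, 2.15 and 3.32 on the Dec. arrays. Complement c1q tumor necrosis factor-related protein 3-like (A_05_P461537), which the study did not list for muscle, read -0.05, 1.49, -0.01 and 1.73 on the Sept. arrays. On the Dec. arrays it read 0.40, 0.10 and 4.75, with no value on the last. Complement C1q-like protein 2 precursor (A_05_P252174) read 0.68, 1.10, 1.33 and 1.96 on the Sept. arrays and 1.22, -0.03 and 3.64 on the Dec. arrays, again with no value on the last. Other probes of the same names differed. A second probe of complement c1q-like protein 4 precursor (A_05_P388222), listed by the study for small Dec. fish, read 1.09, -0.71, 0.26 and -0.98 on the Sept. arrays and between -0.75 and -0.24 on the 4 Dec. arrays. A second probe of complement C1q-like protein 2 precursor (A_05_P435182), also listed for small Dec. fish, read -0.31, -0.62, 0.14 and 0.03 on the Sept. arrays and -1.45, -0.60, -1.26 and 0.01 on the Dec. arrays. The sixth, complement c1q tumor necrosis factor-related protein 5-like (A_05_P428642), lay between -0.33 and 0.53 on the 7 arrays with a value.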
